A study of Mus musculus with 2 samples.

Results

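The cells described here were T cells that still carried messenger RNA of Il17a or Il17f after being sorted for a history of Il17 expression. They were chosen from deposited counts of unique molecular identifiers (UMIs), each of which stands for 1 captured RNA molecule. An Il17-positive cell (a member, in the plots) had at least 200 genes, at most 10% of its UMIs from mitochondrially encoded genes, no UMI of the gamma delta receptor gene Trdc, at least 1 UMI of Cd3d, Cd3e or Cd3g, and at least 1 UMI of Il17a or Il17f. The rule found 279 of 7396 deposited barcodes. Another 5359 barcodes met every other condition and had no Il17a or Il17f UMI, and they are called Il17-negative cells. Since Il17a, Il17f, Trdc and the CD3 genes chose the cells, their values are given as a description.

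Mice of both libraries were immunised with myelin oligodendrocyte glycoprotein in complete Freund's adjuvant (MOG/CFA), which induces experimental autoimmune encephalomyelitis (EAE), a model of multiple sclerosis, and CD4+YFP+ cells were sorted at the peak of disease. The control library was Il17Cre/R26YFP and the Id2-deficient library Il17Cre/Id2f/f/R26YFP, so the control cells also carried the Il17-driven Cre and the yellow fluorescent reporter. Cre switches the reporter on for good, so the sort held current and former Il17 producers, and Id2 could be deleted only in cells that had made the Cre. The labels disagree on the tissue, which is a draining lymph node in the titles, spleen in the protocol and design text, and both organs in the tissue field. The number and age of the mice, the floxed exons and the exact Cre allele are not given in the sources used here. With 1 library per genotype, genotype and library cannot be told apart, and no test between or within libraries was possible. Every interval below is a 95% interval for counting error only.

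T helper 17 (Th17) cells defend barrier surfaces and drive inflammation in EAE. STAT3, BATF and IRF4 act at the neighbouring Il17a and Il17f genes, and IL-1 and IL-23 sustain their cytokine production. IL-17A and IL-17F form homodimers and heterodimers that act on epithelial and stromal cells. Id2 binds E proteins and keeps them from DNA. Cytokine mRNA is made in bursts, so a cell without a UMI of a cytokine may still belong to the lineage.

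The proximal promoters of the genes that define the cells are shown because Id2 restrains E proteins, which bind the E-box motif. Each is the 250 bases before the RefSeq start, read on the gene's own strand (GRCm38.p6), for Il17a at chr1:20730655-20730904 on the plus strand and for Il17f at chr1:20784271-20784520 on the minus strand. Capitals mark the E-box CANNTG, which reads the same on both strands.
Il17a: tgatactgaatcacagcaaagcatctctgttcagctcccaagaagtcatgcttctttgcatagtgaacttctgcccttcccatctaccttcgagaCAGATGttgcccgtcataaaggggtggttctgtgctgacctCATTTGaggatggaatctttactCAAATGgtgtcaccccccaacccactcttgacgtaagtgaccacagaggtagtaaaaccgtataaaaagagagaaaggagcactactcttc
Il17f: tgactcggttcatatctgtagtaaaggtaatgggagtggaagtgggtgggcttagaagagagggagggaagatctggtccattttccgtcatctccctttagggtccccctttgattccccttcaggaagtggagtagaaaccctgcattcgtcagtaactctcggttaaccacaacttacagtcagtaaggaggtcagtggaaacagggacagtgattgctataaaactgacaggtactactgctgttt
The E-boxes of Il17a lay 155 to 150, 114 to 109 and 91 to 86 bases before its start, and the window of Il17f held 0. An E-box was found in 66.2% of 32851 promoter windows of the same length, so a match or its absence is only a description. The window of Il23r held 2 E-boxes and that of Il22 held 1. Ccr6 has a pair of listed starts, whose windows held 0 and 2.

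The targeted gene matched the labels. Il17-positive cells held 718 UMIs in 149 of 199 control cells and 5 UMIs in 3 of 80 Id2-deficient cells for Id2. Per 1e+06 UMIs of the group (CPM, the scale used throughout), the level was 5.15 against 329 CPM, a log2 ratio of -6.00 (interval -7.62 to -4.77). In Il17-negative cells the levels were 12.1 and 312 CPM. Within the control library, Il17-positive and Il17-negative cells differed by a log2 ratio of 0.08 (interval -0.04 to 0.19) in Id2.

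Il17-positive cells were a small share of gated T cells in both libraries. They were 199 of 3920 gated control cells, or 5.08% (exact Clopper-Pearson interval 4.41 to 5.81%). They were 80 of 1718 gated Id2-deficient cells, or 4.66% (3.71 to 5.76%), and the intervals overlapped. Detection went with depth. From the shallowest to the deepest of 4 equal groups of gated cells the share was 1.63, 2.35, 4.80 and 11.5% in the control library and 1.86, 1.16, 3.50 and 12.1% in the Id2-deficient library. With each cell thinned to 1000 UMIs, 41 of 3918 control cells (1.05%) and 17 of 1712 Id2-deficient cells (0.993%) were positive, and 2 and 6 shallower cells were left out.

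Il17a was seen in 1.86% of gated control cells and 1.28% of gated Id2-deficient cells, and Il17f in 3.72% and 3.84%. After thinning the Il17a shares were 0.562% and 0.292% (interval 0.0949 to 0.680%, from 5 cells), and the Il17f shares were 0.562% and 0.818%. At the thinned depth the libraries' intervals overlapped for each gene.

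Cells that should lack the genes gave a measure of free RNA. Of 37 control and 33 Id2-deficient barcodes with B cell genes and no CD3 UMI, 0 showed Il17a or Il17f, which allows shares of up to 8.11% and 9.09% by 3 counts of the total, and 9.49% and 10.6% by the Clopper-Pearson limit. Their median depths were 3638 and 4954 UMIs, below the 5309 and 6164 UMIs of Il17-negative cells. Of all kept barcodes with neither CD3 nor Trdc UMIs, 2 of 125 control barcodes (1.60%, interval 0.194 to 5.66%) and 0 of 48 Id2-deficient barcodes were positive. These groups are too small to show whether a share of the cells with 1 Il17 UMI is background.

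Il17f was detected more often in cells with Il17a than in cells without it. It was seen in 20 of 73 Il17a-positive control cells (27.4%, interval 17.6 to 39.1%) and in 3.28% of Il17a-negative gated cells. In the Id2-deficient library it was seen in 8 of 22 (36.4%, 17.2 to 59.3%) and in 3.42%. The Il17a-positive cells were also deeper, with medians of 7823 against 5353 UMIs and 8377 against 6214 UMIs.

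The gamma delta gate removed many Il17 producers. Of Il17-positive barcodes that passed the quality limits, 129 of 330 control and 40 of 120 Id2-deficient barcodes carried Trdc, and 17 and 2 of them had a single Trdc UMI. The cells kept were 60.3% and 66.7% of the Il17-positive barcodes. The mitochondrial limit removed 525 of 2459 Id2-deficient barcodes and 3 of 4937 control barcodes, and with them 9 otherwise gated Id2-deficient Il17-positive cells.

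Most markers fitted CD4 T cells. Trac, Trbc1 or Trbc2 RNA was present in 198 of 199 control and 80 of 80 Id2-deficient Il17-positive cells, and Cd4 RNA in 154 (77.4%) and 61 (76.2%). Cd8a was at 0 UMIs in both libraries, and Cd8b1 gave UMIs in 9 and 1 cells. The median cell held 22 control and 25 Id2-deficient CD3 UMIs, and 0 cells entered through a single one.

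Some RNA of other cell types was present. UMIs of Tcrg-C1, Tcrg-C2 or Tcrg-C4, which alpha beta T cells can also transcribe, occurred in 46 control and 8 Id2-deficient cells. Over the 9 gamma delta markers, 71 control and 42 Id2-deficient cells had a UMI, Trdv4 and Tcrg-V6 were at 0 in both, and the summed level per cell ran from 0 to 2776 and from 0 to 2034 CPM. The list was at 95.3 CPM in control Il17-positive cells against 64.4 CPM in Il17-negative cells, and at 177 against 88.2 CPM in the Id2-deficient library, where 5830411N06Rik gave 144 of 172 UMIs. Requiring Trac and no Tcrg-C UMI, chosen after seeing the data, gave 94 genes higher and 137 lower in both libraries against 112 and 122 with all cells, and 416 higher and 643 lower between libraries against 475 and 661. There Ccr6 had log2 ratios of 0.83 and 0.83 and Fabp5 of 1.55 and 2.21, while Il23r was under the fold in the control library at 0.39 and not measured in the Id2-deficient library.

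Single cells carried much of the rest. One control cell held 5703 of the group's 5735 red cell UMIs, and the red cell list was at 2628 CPM with it and 14.8 CPM without it. The myeloid list was at 558 CPM (364 without its top cell) against 315 CPM in the control library, and at 194 against 164 CPM in the Id2-deficient library. Ms4a1 and Pax5, defining B cell genes, were at 0 in Il17-positive cells of both libraries. Ighm, another B cell gene, gave 69 UMIs in 41 control and 216 UMIs in 52 Id2-deficient Il17-positive cells. Over the 10 B cell markers, 41.2% of control and 72.5% of Id2-deficient Il17-positive cells had a UMI. The shares of Il17-negative cells were 35.8% and 74.7%. In the control library 1 Il17-positive cell held 378 of the group's 608 UMIs of the B cell list. The list was at 279 CPM with that cell and 107 CPM without it. Control Il17-negative cells were at 325 CPM with their top cell and 194 CPM without it. Of the list's measured genes, H2-Aa had the highest control log2 ratio, 2.25, and Ighm the lowest, -2.77. Among control Il17-negative cells, neutrophil genes summed to 1573 CPM and plasma cell genes to 1522 CPM, against 18.8 and 87.5 CPM in Il17-positive cells. Without the top Il17-negative cell of each list, these sums were 1086 and 639 CPM. The share of control cells with a UMI was higher among Il17-positive cells. It was 18.1% against 13.9% for neutrophil genes and 48.2% against 36.9% for plasma cell genes. Doublets were not called.

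Most Il17-positive cells rested on 1 molecule. Exactly 1 Il17a or Il17f UMI was found in 121 of 199 control cells (60.8%) and 44 of 80 Id2-deficient cells (55.0%), which are the cells just inside the threshold, while the Il17-negative cells lie just outside it at 0. At least 5 UMIs were found in 27 and 12 cells. The plot of UMIs per cell shows the long floor at 1 UMI and the few cells far above it.

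**Figure D1:**
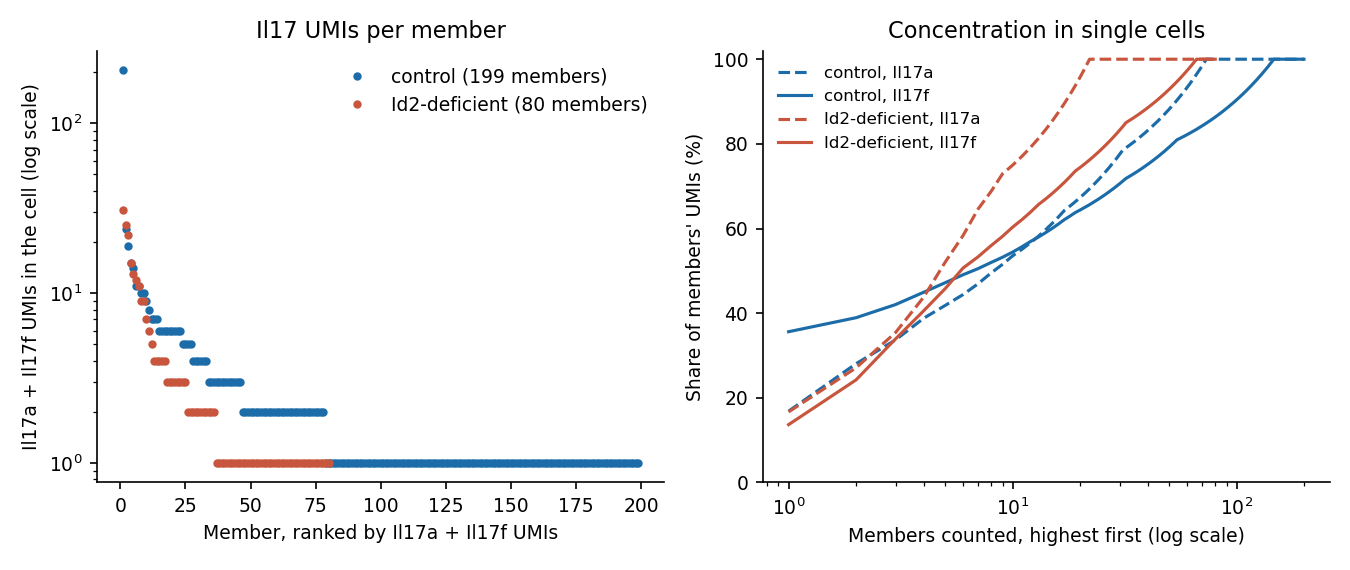
Left, Il17a plus Il17f UMIs (log scale) of each Il17-positive cell, ranked within its library (199 control and 80 Id2-deficient cells). Right, cumulative share of the group's Il17a (dashed) or Il17f (solid) UMIs held by its highest cells, against their number (log scale): 1 control cell held 35.6% of the control Il17f UMIs.

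Il17f gave more UMIs than Il17a. Control cells held 196 Il17a UMIs in 73 cells, 89.8 CPM (exact Poisson interval 77.7 to 103), and 483 Il17f UMIs in 146 cells, 221 CPM (202 to 242). Id2-deficient cells held 48 Il17a UMIs in 22 cells, 49.4 CPM (36.5 to 65.5), and 227 Il17f UMIs in 66 cells, 234 CPM (204 to 266). A 3′ count does not grow with transcript length, but capture may differ between the genes.

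A single cell set much of the control level. It held 33 Il17a, 172 Il17f and 420 Il22 UMIs among 45447 UMIs, with 9 Trac, 30 Trbc2 and 3 Cd4 UMIs. It also had 5 UMIs of other lineages (3 S100a8, 1 Ighm and 1 Sdc1), and no doublet call was made. It carried 16.8% of the group's Il17a and 35.6% of its Il17f UMIs. The 5 highest cells of each gene carried 41.8% and 47.2%. Without the top cell of each gene, Il17a stood at 76.3 CPM and Il17f at 146 CPM.

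In the Id2-deficient library no cell held as large a share of Il17f. The highest cell held 31 Il17f and 0 Il17a UMIs among 12004 UMIs, with 9 Ccr6 and 5 Il23r UMIs. The top cell of each gene carried 16.7% of Il17a and 13.7% of Il17f, and the 5 highest carried 52.1% and 45.8%. Without the top cell, Il17a stood at 42.0 CPM and Il17f at 204 CPM. For Il17a the Id2-deficient and control libraries were at 49.4 and 89.8 CPM with their top cells and at 42.0 and 76.3 CPM without them. Il17a helped choose the cells, and its thinned shares of gated cells had overlapping intervals, so these levels are only a description. For Il17f the libraries were at 234 and 221 CPM with their top cells and at 204 and 146 CPM without them.

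By transcript, 53 control cells had only Il17a, 126 only Il17f and 20 both, with median depths of 6979, 8365 and 12729 UMIs. The Id2-deficient counts were 14, 58 and 8. Cells with both transcripts were the deepest of the kinds in each library.

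Il17-positive cells were deeper than Il17-negative cells. The median was 8063 UMIs (2272 to 46612) against 5309 in the control library and 9449 UMIs (1679 to 57577) against 6164 in the Id2-deficient library. The median mitochondrial share was 1.53% against 1.76% and 3.64% against 4.28%, higher in the Id2-deficient library in both groups. The libraries shared 3 barcodes, 0 of them Il17-positive. Because of the depth difference, each comparison within a library was also repeated with Il17-negative cells weighted to the depth of the Il17-positive cells.

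Within each library a gene was called at 1.5-fold or more in CPM, among genes with at least 20 UMIs expected in the smaller group. In the control library 384 genes were higher in Il17-positive cells (5.17% of 7432) and 412 lower (5.54%). In the Id2-deficient library 263 were higher (4.91% of 5360) and 569 lower (10.6%). In both libraries 112 were higher (2.1% of 5339) and 122 lower (2.29%). With depth-weighted Il17-negative cells these were 19 and 42, and among cells of 3000 to 10000 UMIs they were 12 and 22 of 2235.

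Among the other genes of the cytokine list, Il22 was the one higher in both libraries. Il22, which acts on epithelium, was at 235 against 11.6 CPM in the control and 140.1 against 34.5 CPM in the Id2-deficient library, with log2 ratios of 4.34 (interval 4.13 to 4.56) and 2.02 (1.73 to 2.30). One control cell held 420 of 512 UMIs, and without the top Il17 cell of each library the ratios were 1.90 and 2.04. Il22 was seen in 18.1% against 4.33% and 37.5% against 10.3% of Il17-positive against Il17-negative cells, and after thinning in 6.03% against 0.995% and 10.0% against 3.06%. Il22 (chr10:118204942-118210047) and Iltifb (chr10:118289629-118295038) are near-identical copies that may share reads, so both are uncertain. Iltifb, named after its values were seen, was at 32.1 against 8.83 CPM and 58.7 against 20.9 CPM.

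The rest of the cytokine list differed between libraries or was rare. The list of 18 had 2 higher and 1 lower of 8 measured (median log2 ratio 0.11) in the control library and 1 higher and 1 lower of 7 measured (median log2 ratio 0.16) in the Id2-deficient library, beside medians of -0.01 and -0.05 over all genes. Tnfsf11, the RANK ligand, was at 77.0 against 23.6 CPM (log2 1.71, interval 1.45 to 1.96) in the control library and 42.2 against 46.8 CPM in the Id2-deficient library, a difference between libraries that was not tested. Ifng, the Th1 cytokine, was at 16.0 against 40.9 CPM in the control library and had 5 UMIs in 1 Id2-deficient cell. The shares of control cells with Ifng were close, at 8.54% (interval 5.06 to 13.3%) against 9.51%. After thinning they were 1.51%, from 3 cells, against 3.15%. Ccl20, the CCR6 ligand, was under the UMI minimum in both libraries, so it was not called. It was at 43.1 against 0.953 CPM from 94 UMIs in 10 control cells, and control cells with 5 or more Il17 UMIs held 83 of them. In the Id2-deficient library 1 Il17-positive cell had 3 Ccl20 UMIs, and Il17-negative cells were at 3.46 CPM.

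Csf2, which encodes GM-CSF and is needed for EAE, was too rare to call, with 29 UMIs in 24 control cells and 2 UMIs in the Id2-deficient cells. Il21, a cytokine of follicular helper and Th17 cells, was at 11.0 against 11.3 CPM and 69.0 against 57.5 CPM, under the fold in each library. Tnf had log2 ratios of -0.04 (interval -0.42 to 0.32) and 0.26 (-0.27 to 0.75), also under it. Il9, Il3 and Il24 had 0 UMIs in Il17-positive cells of both libraries.

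Among the Th17 transcription factors, Ahr, Batf and Maf passed the fold in the control library only, and whether the libraries differ was not tested. Ahr, the aryl hydrocarbon receptor, was at 72.9 against 30.7 CPM and 45.3 against 35.0 CPM in the control and Id2-deficient libraries. Batf, an AP-1 factor, was at 155 against 98.6 CPM and 263 against 199 CPM. Maf, which promotes Il21 and Il10, was at 421 against 280.1 CPM and 696 against 534 CPM. Rora, a nuclear receptor of Th17 cells, was at 157 against 164 CPM and 132 against 130.4 CPM, under the fold in each library. Stat3, which carries IL-6 and IL-23 signals, was at 56.8 against 53.0 CPM and 49.4 against 79.0 CPM and was called lower in the Id2-deficient library.

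Ccr6, Il1r1 and Il23r were the genes of the receptor list higher in both libraries. Ccr6 (chr17:8236043-8257141), which guides Th17 cells to CCL20, was at 204 against 122 CPM in the control and 227 against 116 CPM in the Id2-deficient library, with log2 ratios of 0.74 (interval 0.59 to 0.88) and 0.96 (0.75 to 1.17). It was seen in 77.9% against 36.9% and 72.5% against 36.8% of cells and, after thinning, in 20.6% against 10.6% and 27.5% against 9.93%. Il1r1, the signalling IL-1 receptor, was at 62.8 against 33.2 CPM and 85.5 against 50.5 CPM, with ratios of 0.92 (interval 0.65 to 1.18) and 0.76 (0.41 to 1.09). These ratios held their size with depth weighting, at 0.75 and 1.00 for Ccr6 and 0.92 and 0.72 for Il1r1.

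Il23r, the IL-23 receptor, was rarer, at 20.2 against 13.1 CPM and 58.7 against 19.1 CPM, with ratios of 0.63 (interval 0.14 to 1.09) and 1.62 (1.17 to 2.04). Its depth-weighted ratios were 0.48 and 1.62, the first under 1.5-fold, and its thinned shares of 2.51% against 1.43% and 2.50% against 1.16% rest on few cells. Il1r2, the decoy IL-1 receptor, was named after its values were seen and was at 38.5 against 8.95 CPM and 63.9 against 22.2 CPM. Il6st, the gp130 chain of the IL-6 receptor, was lower in both libraries, at 4.12 against 12.9 CPM and 11.3 against 63.7 CPM, from 9 and 11 UMIs. Over the list of 14 receptors there were 4 higher and 2 lower of 14 measured (median log2 ratio -0.31) in the control library and 3 higher and 2 lower of 9 measured (median log2 ratio -0.28) in the Id2-deficient library.

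Genes abundant in Th17 cells passed the fold mostly in the Id2-deficient library. There were 1 higher and 0 lower of 9 measured (median log2 ratio 0.38) in the control library and 7 higher and 0 lower of 9 measured (median log2 ratio 1.14) in the Id2-deficient library. Tmem176a, a membrane protein abundant in Th17 cells, was at 797 against 536 CPM and 551 against 227 CPM, and its partner Tmem176b at 607 against 501 CPM and 389 against 177 CPM. S100a4, a calcium-binding protein of effector cells, was at 2785 against 2349 CPM and 1526 against 694 CPM. For these 3 genes the Id2-deficient Il17-negative cells had the lowest of the levels. Among cells of 3000 to 10000 UMIs, 6 of 9 genes passed in the control library and 4 of 5 in the Id2-deficient library. Over all genes in that window, 12 of 2235 were higher in both libraries, and the share in each library is not given here. The plot of ratios by gene shows Ccr6, Il1r1 and Il23r to the right of 0 in both libraries.

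**Figure D2:**
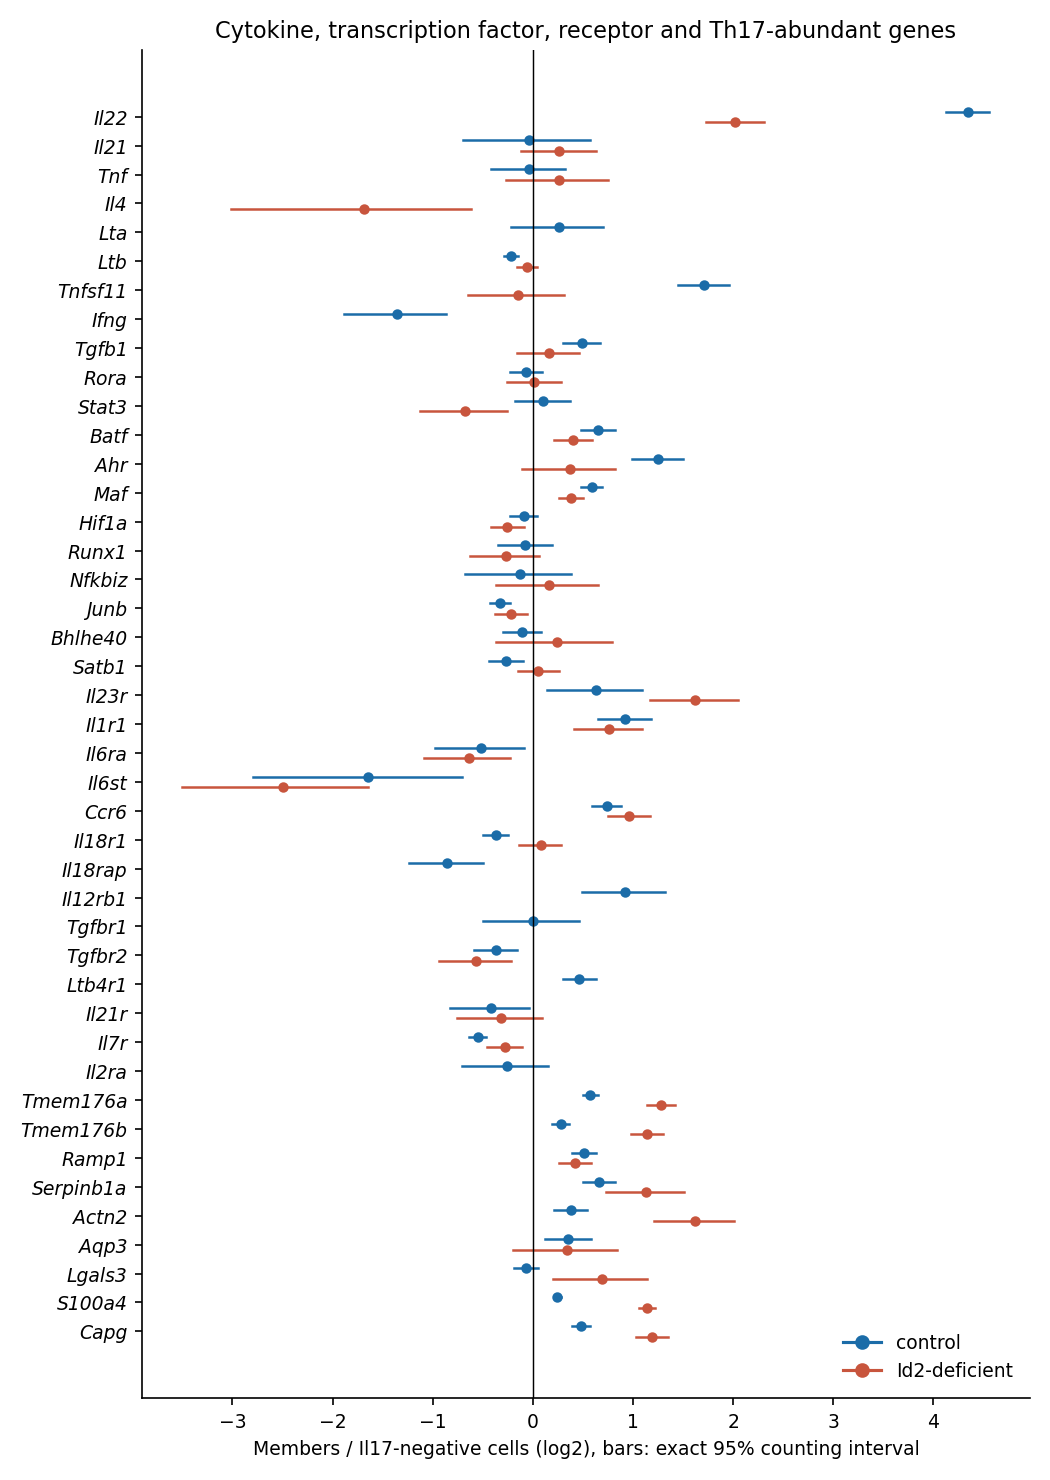
Log2 ratio of CPM, Il17-positive over Il17-negative cells (x), for measured genes (y) of the cytokine, transcription factor, receptor and Th17-abundant lists in the control (blue) and Id2-deficient (red) library, with bars for 95% counting intervals. Ccr6 stood at 0.74 and 0.96, and Il6st at -1.65 and -2.49.

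Cell division genes were higher in Il17-positive cells of both libraries. The list of 20 had 18 higher and 0 lower of 20 measured (median log2 ratio 1.22) in the control library and 16 higher and 0 lower of 17 measured (median log2 ratio 1.42) in the Id2-deficient library, with 14 of 17 higher in both. Rrm2, a subunit of ribonucleotide reductase, was at 167 against 66.7 CPM and 263 against 36.9 CPM. Ube2c, which acts in mitotic exit, was at 240.1 against 73.8 CPM and 106 against 39.6 CPM. Cells with 2 or more UMIs of 10 cycling genes were 35.7% against 12.1% and 27.5% against 10.0% of Il17-positive against Il17-negative cells, and 13.6% against 4.09% and 10.0% against 2.63% after thinning.

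The median ratios of the list were smaller with depth weighting and within a depth window. The cycling shares of thinned cells stayed apart, at 13.6% against 4.09% and 10.0% against 2.63%. With depth-weighted Il17-negative cells the medians were 0.28 and 0.49, beside 0.03 and -0.02 over all genes. There 3 of 20 and 8 of 17 genes passed the fold. Over all genes 19 of 5339 were higher in both libraries with this weighting, and the share in each library is not given here. Among cells of 3000 to 10000 UMIs the medians were 0.39 over 8 genes and 0.02 over 3. Dividing cells hold more RNA, and depth and division cannot be told apart here.

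Genes of naive and memory cells were lower. The list of 13 had 0 higher and 7 lower of 10 measured (median log2 ratio -0.71) in the control library and 0 higher and 8 lower of 10 measured (median log2 ratio -0.92) in the Id2-deficient library. Tcf7, the TCF-1 factor of naive and memory T cells, was at 143 against 285 CPM and 275 against 505 CPM. Ccr7, the chemokine receptor that guides T cells into lymph nodes, was at 10.1 against 28.1 CPM and 23.7 against 45.5 CPM. With depth-weighted cells the medians were -0.49 and -0.53, with 3 and 4 genes lower. Over all genes the weighted medians were 0.03 and -0.02, and 42 of 5339 genes were lower in both libraries.

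**Figure D3:**
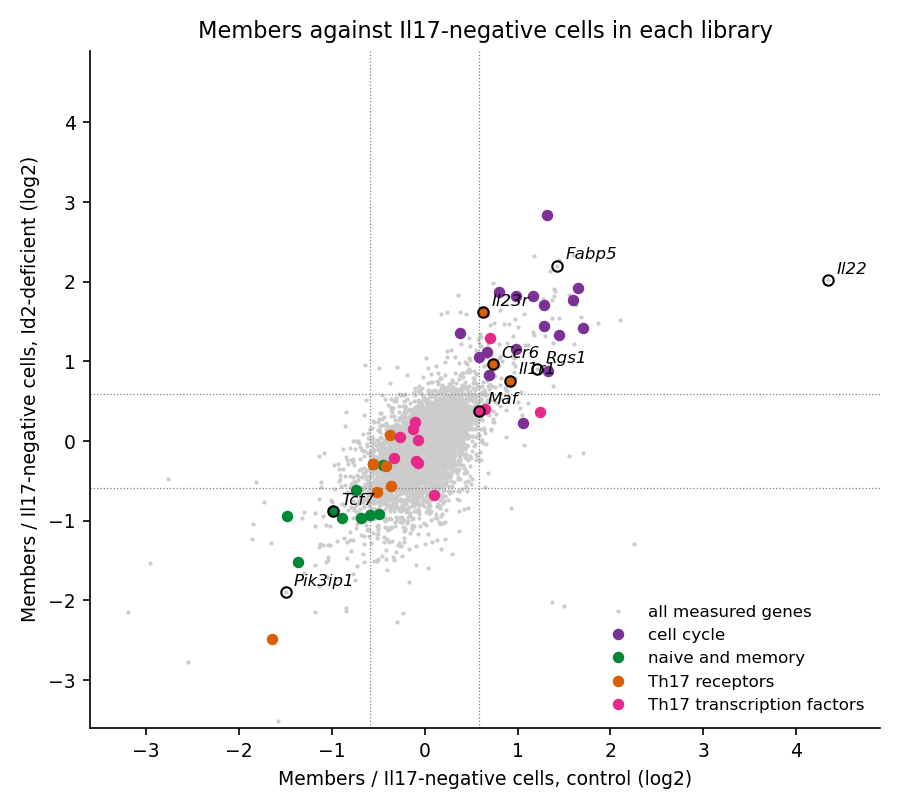
Log2 ratio of Il17-positive over Il17-negative cells in the control (x) and Id2-deficient (y) library for 5254 genes measured in both, without ribosomal protein genes, with 5 genes outside the axes and dotted lines at 1.5-fold. Cell cycle genes (purple) lie mostly at upper right and naive and memory genes (green) at lower left, where Tcf7 stood at -0.99 and -0.88.

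Of the 12 genes ranked highest over both libraries, Stmn1, Hmgb2, Hmgn2, Rrm1, Mcm3, Gmnn, H2afz, Lmnb1 and Tipin had control ratios of 0.80 to 1.29 and Id2-deficient ratios of 1.04 to 1.83, and most of them act in DNA replication, chromatin or mitosis. With depth weighting these became 0.27 to 0.37 and 0.22 to 0.92. The other 3 kept theirs past the fold. Fabp5 (chr3:10012548-10016607), a fatty acid binding protein, was at 396 against 147 CPM in the control and 403 against 87.5 CPM in the Id2-deficient library, with ratios of 1.43 (interval 1.32 to 1.54) and 2.20 (2.03 to 2.37) and depth-weighted ratios of 0.95 and 1.71. Rgs1, which dampens chemokine receptor signalling, was at 218 against 94.2 CPM and 136 against 72.6 CPM, with depth-weighted ratios of 1.18 and 1.05. Ehd1, which acts in endosome recycling, was at 69.6 against 28.3 CPM and 46.3 against 18.5 CPM, with 1.18 and 1.08.

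Fabp5, Rgs1, Ccr6 and Glrx were the genes past the fold in both libraries with depth weighting, within 3000 to 10000 UMIs and without cycling cells. Glrx, a glutaredoxin that reduces disulfides, had control and Id2-deficient ratios of 0.85 and 0.71, of 1.33 and 1.36 and of 1.21 and 1.02 in these checks. Il1r1 passed the first and the last, and too few UMIs were left to measure it in the Id2-deficient depth window. Glrx was singled out after its values were seen.

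Of the 12 genes ranked lowest, Gimap6, Klf3, Pik3ip1, Tbc1d4, Bcl2, Slamf6, Rflnb, Tcf7, Malat1, Nsg2, Gimap3 and Lef1 had control ratios of -1.84 to -0.70 and Id2-deficient ratios of -1.90 to -0.87. Bcl2, the survival factor, was at 49.0 against 101 CPM and 35.0 against 96.0 CPM. Pik3ip1, a brake on PI3 kinase, was at 8.71 against 24.6 CPM and 11.3 against 42.3 CPM. Slamf6, a receptor of memory and follicular helper cells, was at 60.9 against 129.9 CPM and 182 against 349 CPM. Of the 12, Klf3, Tbc1d4, Bcl2 and Nsg2 stayed past the fold in both libraries in all 3 checks.

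Cells with more Il17 UMIs differed more in some of these genes. Bins of 0, 1, 2 to 4 and 5 or more UMIs held 3721, 121, 51 and 27 control and 1638, 44, 24 and 12 Id2-deficient cells, and median depth also went up, to 16357 and 18199 UMIs. Fabp5 was at 147, 231, 284 and 916 CPM along the control bins and 87.5, 169, 378 and 829 CPM along the Id2-deficient bins. Tcf7 was at 285, 164, 140.4 and 97.2 CPM and 505, 347, 269 and 158 CPM. The order was the same in both libraries, up for Fabp5 and down for Tcf7, with the last bins resting on 27 and 12 cells.

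Ccr6 had its main step between 0 and 1 UMI. It was at 122, 228, 213 and 137 CPM in the control and 116, 218, 217 and 251 CPM in the Id2-deficient library. In the control library it was lower in the last bin than in the bin with 1 UMI.

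**Figure D4:**
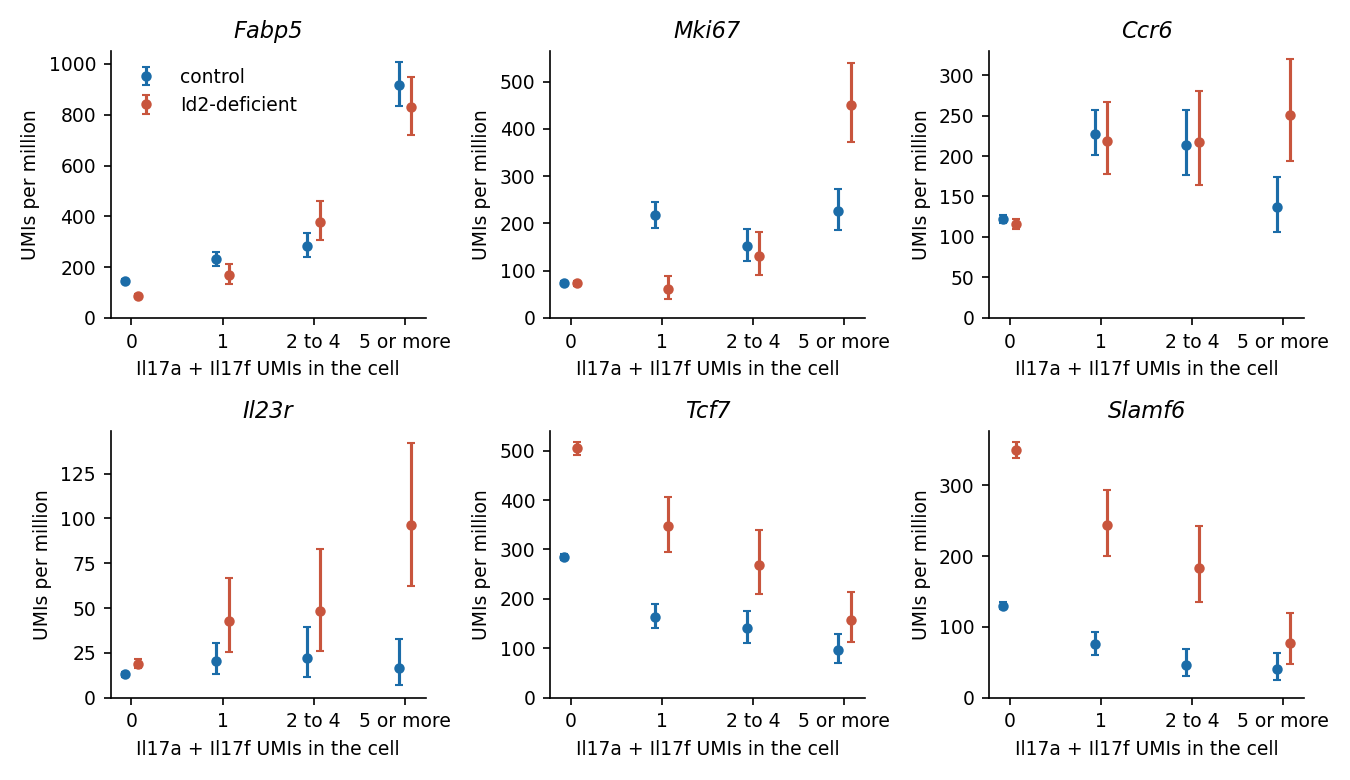
CPM of 6 genes (y) by the number of Il17a plus Il17f UMIs in the cell (x), in control (blue) and Id2-deficient (red) cells, with exact Poisson 95% intervals of summed UMIs. Fabp5 is highest and Tcf7 and Slamf6 are lowest in cells with 5 or more Il17 UMIs in both libraries.

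Th1 and cytotoxic genes were lower in the control library. The list of 20 had 0 higher and 9 lower of 13 measured (median log2 ratio -1.62) there and 1 higher and 3 lower of 7 measured (median log2 ratio 0.18) in the Id2-deficient library. Ccl5, a chemokine of Th1 and cytotoxic cells, was at 10.5 against 417 CPM and 6.18 against 52.7 CPM. It was seen in 6.03% against 12.4% of control cells. In the Id2-deficient library the share went the other way, at 5 of 80 cells (6.25%, interval 2.06 to 14.0%) against 17 of 1638 (1.04%). After thinning, the Id2-deficient shares were 0 of 80 against 0.490%. Cxcr6, a tissue-homing receptor, was at 429 against 363 CPM and 261 against 84.5 CPM, past the fold in the Id2-deficient library only.

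Follicular helper genes were lower mostly in the Id2-deficient library. The list of 16 had 1 higher and 2 lower of 13 measured (median log2 ratio -0.21) in the control library and 0 higher and 8 lower of 14 measured (median log2 ratio -0.73) in the Id2-deficient library. Cxcr5, the follicle homing receptor, was at 0.916 against 15.6 CPM and 47.4 against 87.4 CPM, from 2 and 46 UMIs. Izumo1r, a marker of regulatory and follicular T cells, was at 7.33 against 67.3 CPM and 52.5 against 232 CPM. Icos, a costimulatory receptor, went the other way in the control library, at 204 against 116 CPM.

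Glycolysis genes had 0 higher and 1 lower of 16 measured (median log2 ratio 0.21) in the control library and 5 higher and 1 lower of 13 measured (median log2 ratio 0.53) in the Id2-deficient library. Gapdh, a glycolytic enzyme, was at 1513 against 1142 CPM and 1772 against 1145 CPM. Interferon response genes had medians of -0.18 and -0.21, and T cell receptor activation genes of 0.07 and -0.15.

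Between libraries, 475 genes were higher in Id2-deficient than in control Il17-positive cells (9.1% of 5218) and 661 lower (12.7%). Scaled without mitochondrial and ribosomal protein genes, the counts were 648 and 442, and the median of all genes moved by 0.12 on the log2 scale. In Il17-negative cells of the same libraries 1698 were higher (16.2% of 10477) and 970 lower (9.26%). For many results the ratios of both kinds of cell are given side by side, and neither separates the genotype from the library.

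In both kinds of cell, the Id2-deficient library had the higher levels of follicular helper genes. Il17-positive cells had 9 higher and 0 lower of 10 measured (median log2 ratio 1.16), and Il17-negative cells 16 higher and 0 lower of 16 measured (median log2 ratio 1.59). Il21 was at 69.0 against 11.0 CPM (log2 2.65, interval 1.96 to 3.39), beside 2.35 in Il17-negative cells. Slamf6 was at 182 against 60.9 CPM (log2 1.58, interval 1.25 to 1.92), beside 1.43. Tox2, a factor of follicular helper cells, was at 85.5 against 20.6 CPM (log2 2.05, interval 1.51 to 2.61), beside 1.79.

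Id3, an inhibitor of E proteins related to Id2, was at 146 against 27.5 CPM (log2 2.41, interval 1.97 to 2.87), beside 2.28 in Il17-negative cells. The other genes of the 12 ranked highest were Rflnb, Nsg2, Hspa1b, AY036118, 5830411N06Rik, mt-Co3, mt-Atp6, Zfp36l1 and Lipa, with log2 ratios of 1.66 to 2.21. They include mitochondrially encoded genes, a list with 9 higher and 0 lower of 12 measured (median log2 ratio 1.00) in Il17-positive and 11 higher and 0 lower of 13 measured (median log2 ratio 1.11) in Il17-negative cells, beside the mitochondrial shares of 3.64% and 1.53% given above. They also include Hspa1b, a heat shock gene.

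Genes abundant in Th17 cells were lower in the Id2-deficient library, while the other Th17 lists were mixed. The Th17-abundant list had 0 higher and 6 lower of 9 measured (median log2 ratio -0.87) in Il17-positive and 0 higher and 8 lower of 9 measured (median log2 ratio -1.50) in Il17-negative cells. Among Il17-positive cells the transcription factor list had 5 higher and 2 lower of 13 measured (median log2 ratio 0.44) and the receptor list 3 higher and 2 lower of 11 measured (median log2 ratio -0.01). Among Il17-negative cells these were 6 higher and 2 lower of 14 (median 0.43) and 4 higher and 5 lower of 14 (median -0.02). Ccr2, Lgals3 and Klf2 were among the 12 lowest genes of the ranking. Ccr2, a chemokine receptor for entry into inflamed tissue, was at 25.7 against 227 CPM (log2 -3.14, interval -3.78 to -2.56), beside -2.86. Lgals3, galectin-3, was at 46.3 against 292 CPM (log2 -2.66, interval -3.13 to -2.22), beside -3.41. Klf2, which controls exit from lymphoid organs, was at 188 against 887 CPM (log2 -2.23, interval -2.46 to -2.01), beside -1.81. In Il17-positive cells the regulatory T cell list had 3 higher and 1 lower of 6 measured (median log2 ratio 0.72), and this median changed sign in several alternative settings. In Il17-negative cells the list had 4 higher and 3 lower of 9 measured (median log2 ratio 0.49).

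Stmn2 and Nkg7 had 0 UMIs in Id2-deficient Il17-positive cells, against 243 UMIs in 46 and 91 UMIs in 23 control cells. Against a floor of 3 UMIs in the group they were at least 36.0-fold and 13.5-fold lower. The other genes of the 12 ranked lowest were Ltb4r1, Socs2, Emp3, Vim, S100a10, S100a6 and Lgals1, with log2 ratios of -3.05 to -1.38. Among them Vim, an intermediate filament of effector cells, was at 649 against 2009 CPM.

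Ccr6 and Fabp5 were close between the libraries in Il17-positive cells. Ccr6 was at 227 against 204 CPM (log2 0.15, interval -0.09 to 0.39) and Fabp5 at 403 against 396 CPM (log2 0.02, interval -0.15 to 0.20). In Il17-negative cells Ccr6 was at 116 against 122 CPM, while Fabp5 was lower, at 87.5 against 147 CPM (log2 -0.75). Il23r was higher in the Id2-deficient cells, at 58.7 against 20.2 CPM (log2 1.54, interval 0.95 to 2.14), beside 0.55 in Il17-negative cells. Bhlhe40, which promotes GM-CSF, was lower, at 29.9 against 114 CPM (log2 -1.93, interval -2.54 to -1.37), beside -2.27. Il22 was at 140.1 against 235 CPM, but without the top Il17 cell of each library its log2 ratio was 1.72, so 1 control cell set its direction.

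**Figure D5:**
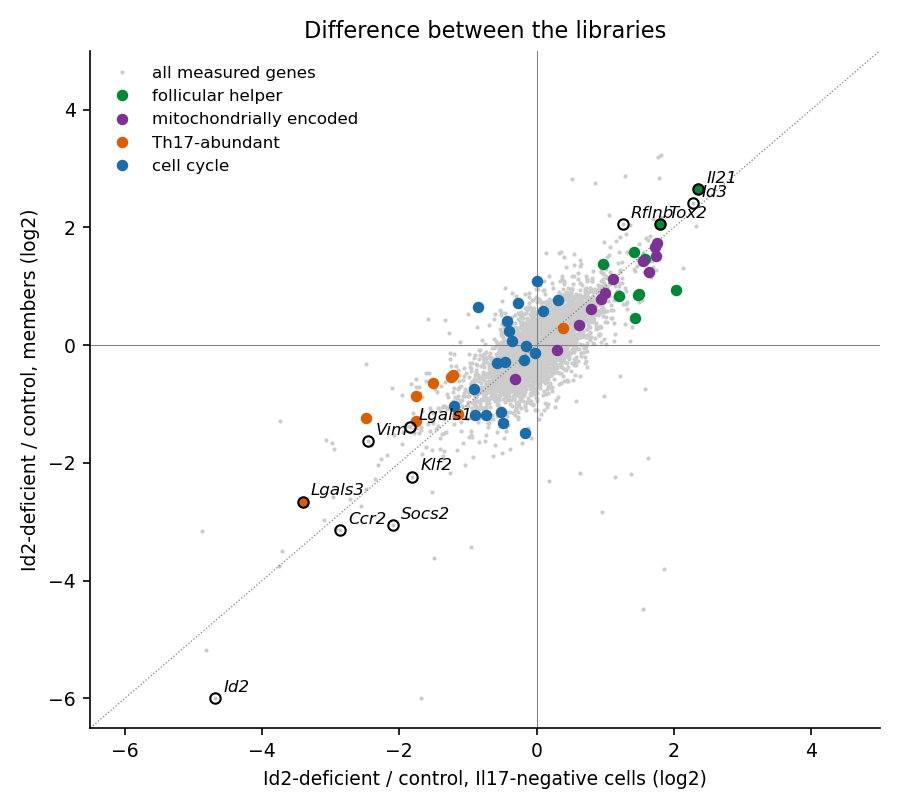
Log2 ratio of the Id2-deficient over the control library in Il17-negative (x) and Il17-positive (y) cells for 5131 genes measured in both, without ribosomal protein genes, with 4 genes outside the axes and a dotted line at equal ratios. Follicular helper genes (green) and mitochondrial genes (purple) lie mostly above 0 on both axes and Th17-abundant genes (orange) mostly below.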

How the data were processed

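Whole-number UMI counts per gene and cell were deposited for 2 droplet libraries, 1 per genotype, as filtered matrices. The file headers name Cell Ranger 5.0.1, while the submitters' processing notes name Cell Ranger 1.3 and mm10, and this difference was not settled. No step after counting is recorded, so the deposited counts were used as raw. Cells were gated by the rule given above, and counts were summed per library and group and scaled to 1e+06 UMIs (CPM). With 1 library per genotype, cells are not replicates and no test was run: ratios have exact conditional binomial intervals, shares Clopper-Pearson intervals and levels Poisson intervals, all 95% and for counting error only, and UMIs of 1 cell are not independent. A gene was measured where at least 20 UMIs were expected in the smaller group and called at 1.5-fold. Shares were repeated at 1000 UMIs per cell. No doublet caller was run.

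Members and lists were chosen with earlier results of these data known. Named genes were Il17a, Il17f and Id2, the 12 highest and 12 lowest by the interval bound nearer to 0 (taking the weaker library within libraries, and no more than 20% of UMIs in 1 cell), every measured gene of the cytokine, factor, receptor and Th17-abundant lists, and up to 4 of each other list. Il1r2, Iltifb and Glrx were added after their values were seen. Ribosomal protein genes and receptor segments were not named from the rankings. Of the listed symbols, 1 was not found, and some listed genes are not reported here. Alternatives covered gates, depth, mitochondrial limits, scaling, the UMI minimum and the fold. Python 3.11.15, numpy 2.4.6, scipy 1.17.1, pandas 2.3.3 and matplotlib 3.10.9 were used, and the interval code was tested on simulated data.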

Additional observations from a re-analysis of the deposited data

Results flagged for a closer look

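Ifit1, an interferon-induced gene, had summed levels that went in opposite directions in the libraries. In Id2-deficient cells it was at 87.5 CPM in Il17-positive against 45.3 CPM in Il17-negative cells, a log2 ratio of 0.95 (interval 0.60 to 1.28). In control cells it was at 11.9 against 18.6 CPM, a log2 ratio of -0.65 (interval -1.28 to -0.08). One cell held 50% of the control and 1 cell held 45.9% of the Id2-deficient UMIs of Il17-positive cells. The higher Id2-deficient level therefore depends on 1 cell, and the intervals do not allow for UMIs that share a cell. The difference between the libraries was not tested.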

How the results depend on the processing

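No paired analysis was possible because there was 1 library per genotype. Genes under the UMI minimum in an alternative have no value there. The other-lineage filter left out 38 of 199 control and 43 of 80 Id2-deficient Il17-positive cells. It also left out 777 of 3721 control and 834 of 1638 Id2-deficient Il17-negative cells. In the Id2-deficient library Ighm, a gene of that filter, was seen in 52 Il17-positive and 1160 Il17-negative cells. Leaving out cycling cells and requiring Trac without Tcrg-C UMIs were chosen after seeing the data. Cycling cells were left out by their UMIs of division genes, so smaller ratios of such genes without them are partly set in advance. The causes of the changes below were not tested, apart from fewer genes being measured where cells were left out or the UMI minimum was 50.

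The control share of 5.08% was 5.91% with Cd4 required, 1.99% with at least 2 Il17 UMIs, 3.47% within 3000 to 10000 UMIs, 3.77% without cycling cells and 1.05% thinned, and the Id2-deficient share of 4.66% was 2.10%, 3.07% and 0.993% with at least 2 Il17 UMIs, within that window and thinned. The share of control Il17a in its highest cell, 16.8%, was 8.80% without cells that had 2 or more other-lineage UMIs, and that of control Il17f, 35.6%, was 6.32%. The cell with 172 Il17f UMIs is itself left out there, so these are shares of other cells. The control Il17f share was 41.2% with Cd4 required, 41.2% with Trac and no Tcrg-C and 20% thinned. For the Id2-deficient library, Il17a went from 16.7% to 40.0% without other-lineage cells and 40.0% thinned, and Il17f from 13.7% to 21.4% without other-lineage cells.

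Genes higher and lower in both libraries, 112 and 122, were 52 and 41 without other-lineage cells, 12 and 22 within 3000 to 10000 UMIs, 18 and 40 without cycling cells, 49 and 42 at a minimum of 50 UMIs, 35 and 29 at 2-fold and 19 and 42 with depth weighting. Between libraries, 475 higher and 661 lower were 216 and 332 without other-lineage cells, 251 and 354 within the depth window, 228 and 238 within 2 to 4% mitochondrial UMIs, 173 and 303 at 50 UMIs and 124 and 212 at 2-fold, and 316 were higher with at least 2 Il17 UMIs.

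Log2 ratios that changed sign within the control library were Hmgb2 -0.22, Hmgn2 -0.44 and Cenpa -0.38 without cycling cells, Gmnn -0.013 and Tipin -0.31 in the depth window, and Mcm5 -0.051 with depth weighting. In the Id2-deficient library they were Pcna -0.51 in the window and -0.25 without cycling cells, Tubb5 -0.30 and the cell cycle median -0.26 without cycling cells. Between libraries they were Stmn1 2.20, S100a4 0.014, Ube2c 1.77, Cenpa 0.33, Satb1 -0.28, mt-Nd4 -0.42 and Il22 1.66 within 2 to 4% mitochondrial UMIs, Tbc1d4 -0.19 and Satb1 -0.025 with at least 2 Il17 UMIs, Batf -0.41 and Pcna -0.72 in the depth window, and Pcna -0.50 and Isg15 0.78 without cycling cells. Il22 was 1.80 without other-lineage cells, 1.72 without the top cells and 0.33 with cells weighted equally. The regulatory T cell median between libraries, 0.72 over 6 measured genes, was -0.040 at a 5% mitochondrial limit, -0.73 with at least 2 Il17 UMIs, -0.36 in the depth window, -0.13 within 2 to 4% and -0.29 without cycling cells.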
